A study of Mus musculus with 38 samples.

Results

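The liver transcriptome of calorie-restricted mice that had received their meal was compared, over all measured genes, with that of calorie-restricted mice sampled at 22 h. The comparison rests on 7 of the 38 libraries of the study, chosen by their labels alone: 3 fed libraries (CR_fed 1 to 3) and 4 libraries of the 22 h group (CR_22h 1 to 4). All 7 came from liver of wild-type female C57BL/6 mice under calorie restriction, a regimen in which less food is given each day, and no allele or drug separated the groups. The fed group was labelled zeitgeber time (ZT) 18, hours counted from lights on, whereas the labels of the 22 h group give no zeitgeber time and do not say from which event its hours count. Clock time thus differed between the groups as well as the meal, and within these 7 libraries their effects cannot be told apart. To set clock time beside the meal, the values of 3 libraries from calorie-restricted mice that missed the meal, also labelled ZT 18 (CR_missed_meal 1 to 3), are given next to those of both groups for many of the genes. The labels do not give the time without food of either unfed group, and it may differ between them. Missed meal minus 22 h therefore cannot tell clock time from time without food. The comparisons share the fed or the 22 h libraries and are not independent. The ages in the labels were 39 to 41 months for the fed, 32 to 35 for the 22 h and 42 to 44 for the missed-meal group, rising by 1 month from sample to sample. If they are right, age and group cannot be told apart; age was not used. The labels do not say whether replicates came from separate animals, so p-values measure only the spread between these samples, which may be technical.

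After a meal, insulin and glucose turn the liver towards storage: glycogen is laid down, the transcription factor SREBP1c drives fatty acid synthesis, and the FOXO factors that serve fasting are kept out of the nucleus. As the time since the last meal grows, glucagon and glucocorticoids raise gluconeogenesis, autophagy recycles cell contents, and fatty acids reaching the liver activate PPARA, the receptor that controls their oxidation and ketone body synthesis. A circadian clock of activators (ARNTL with CLOCK or NPAS2) and repressors (PER, CRY, NR1D1 and NR1D2) runs in the same cells and responds to the time of feeding.

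The 7 libraries held between 17131292 and 30152277 expected counts, a range whose ends were CR_22h 4 and CR_fed 1 and which was also that of all 38 libraries. Levels are given as CPM, read counts scaled to a common library size, and differences are given as log2 fold changes ± the standard error of the model, fed minus 22 h unless stated. None of the 9 tested hepatocyte markers was called. Other tissue was measurable in some fed libraries. The summed level of 10 skeletal muscle genes, chosen after their values were seen, was 313 CPM in CR_fed 1, 146 in CR_fed 2 and 2.09 in CR_fed 3, against 0.276 to 22.4 in the 22 h libraries, and 7 of the 10 were called higher. Likewise 5 white adipocyte genes summed to 36.7 CPM in CR_fed 1 and to between 0 and 1.45 in the other 6. Its hallmark gene Adipoq, at 6.18 CPM in CR_fed 1, was at 0 in CR_fed 2 and 3. Within the groups, CR_fed 3 and CR_22h 3 and 4 stood apart from their replicates in several genes named below, and results that rest on one library are given without it.

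The meal comparison called 2349 of 13786 tested genes, 17.0%, at an adjusted p under 0.05. Of these, 1172 (8.50%) were higher and 1177 (8.54%) were lower in fed livers. Counts of called genes in the lists below are to be read beside these shares. Without regard to the test, all fed libraries lay above all 22 h libraries in 11.0% of tested genes and below them in another 11.0%. The count fell to 1338 without CR_fed 1, 1522 without CR_fed 3 and 1538 without CR_22h 4, and to 975 when only these 7 libraries were fitted. Between fed and missed-meal livers, both at ZT 18, 12.5% of genes were called, 6.14% higher and 6.34% lower in fed livers. Between missed-meal and 22 h livers, neither group labelled as fed, 6.30% were called, 3.53% higher and 2.76% lower after the missed meal. Since the difference between the first 2 comparisons is exactly the third, the third is also the test of whether the fed livers differed from the 22 h livers by another amount than from the missed-meal livers.

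**Figure D1:**
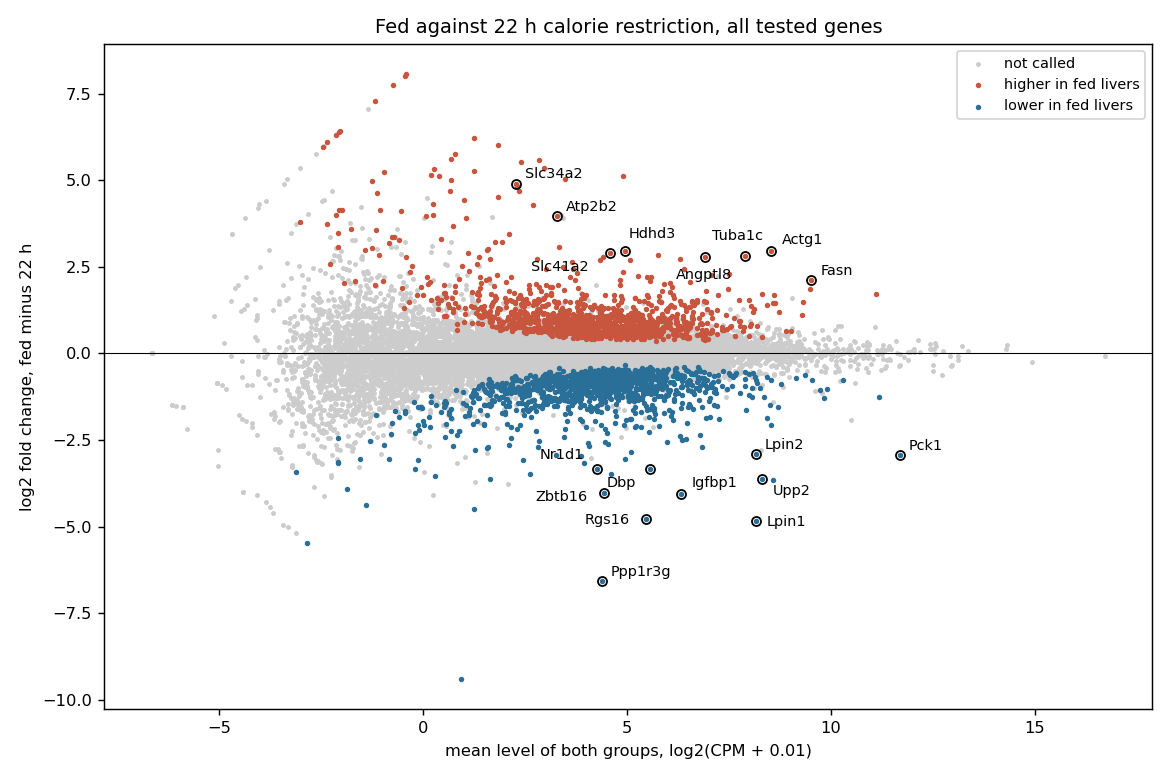
Each point is 1 of 13786 tested genes, with the mean level of the fed and 22 h groups on the horizontal axis (log2 of CPM + 0.01) and the log2 fold change, fed minus 22 h, on the vertical axis; red and blue mark genes called higher (1172) and lower (1177) at an adjusted p under 0.05. Circled genes are named in the text, from Slc34a2 at 4.89 to Ppp1r3g at -6.57.

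The largest rises, counting only called genes that averaged 5 CPM or more in either group and did not overlap between the groups, were led by a phosphate transporter gene. Slc34a2, a sodium-dependent phosphate transporter (GRCm38 chr5:53038081-53071664), stood at 8.74, 7.73 and 11.4 CPM in the fed libraries, 0.515, 0.493, 0.0660 and 0.165 in the 22 h libraries and 1.53, 1.42 and 0.778 in the missed-meal libraries. All unfed libraries lay below all fed ones, and the rise was 4.89 ± 0.72 (adjusted p = 5.20e-05). Atp2b2, a plasma membrane calcium pump, stood at 15.5, 22.9 and 16.1 CPM in the fed, 1.93, 1.48, 0.561 and 0.662 in the 22 h and 1.04, 1.10 and 0.243 in the missed-meal libraries, a change of 3.96 ± 0.62 (adjusted p = 8.95e-05). The histone gene Hist2h3c2 rose by 4.28 ± 0.74, the magnesium transporter gene Slc41a2 by 2.91 ± 0.46, and Hdhd3, which encodes a haloacid dehalogenase-like protein, by 2.96 ± 0.33. Further rises of this size were those of Fam83f (3.23 ± 0.65), Klhdc8a (3.02 ± 0.35) and Ccdc151 (2.99 ± 0.54), and those of Pnpla3, Creld2, Actg1 and Tuba1c given with their groups below. Klhdc8a was also higher in missed-meal than in 22 h livers (2.27 ± 0.35, adjusted p = 2.45e-04).

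The largest falls by the same rule were in genes described with their groups below and in a few others. Upp2, a uridine phosphorylase of liver, stood at 54.8, 52.9 and 36.0 CPM in the fed, 389.8, 352, 1003 and 609 in the 22 h and 219, 196 and 254 in the missed-meal libraries, a change of -3.62 ± 0.53 (adjusted p = 5.26e-05). Rgs16, a regulator of G protein signalling, was at 3.02, 3.22 and 3.05 CPM in the fed, 113, 125, 85.0 and 17.3 in the 22 h and 109.5, 69.9 and 36.1 in the missed-meal libraries, a change of -4.78 ± 1.15. CR_22h 4 had the lowest Rgs16 of its group, still above each fed library. Tcp11l2 changed by -3.17 ± 0.48 and Klhl24, a kelch-family gene, by -3.04 ± 0.48. Against the missed-meal livers their changes were -3.33 ± 0.50 and -3.16 ± 0.50, both called. Sftpa1, a surfactant protein gene, changed by -3.62 ± 1.03, a call lost without CR_22h 4 (adjusted p = 0.13), where it was at 16.1 CPM, and without CR_fed 3 (adjusted p = 0.0619).

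In glucose handling, fed livers held less mRNA for the gatekeeper of gluconeogenesis, and glycogen genes moved both ways. Over all tested genes, 8.50% rose and 8.54% fell. Of 16 glycolysis genes 1 rose and 2 fell, with a list median of 0.24; the falls were those of Pfkfb2 (-1.37 ± 0.30), a bifunctional enzyme that sets fructose 2,6-bisphosphate, and its paralog Pfkfb3. The rise was lost without CR_22h 3, CR_22h 4 or CR_fed 2, 3 genes rose without CR_22h 2, and 1 fell without CR_fed 1 or CR_fed 3. Of 14 gluconeogenesis genes none rose and 3 fell, or 5 without CR_22h 3. Pck1, which makes phosphoenolpyruvate and limits gluconeogenesis, stood at 1182, 971 and 138 CPM in the fed, 8039, 7587, 2264 and 5487 in the 22 h and 5202, 3998 and 4060.5 in the missed-meal libraries. The lowest unfed value, in CR_22h 3, was above the highest fed value, and Pck1 changed by -2.94 ± 0.63 (adjusted p = 0.00163). The coactivator Ppargc1a changed by -1.55 ± 0.40 (adjusted p = 0.0607 without CR_fed 3) and the CREB coactivator Crtc2 by -0.68 ± 0.16. For Crtc2, fed minus missed meal was -0.12 ± 0.17 (adjusted p = 0.717) and missed meal minus 22 h -0.56 ± 0.16 (adjusted p = 0.0341), the latter lost without CR_22h 1, 2 or 3 or CR_missed_meal 1 or 3 (highest adjusted p = 0.21). G6pc, whose product releases free glucose, was at 389, 373 and 286 CPM in the fed, 636, 735, 70.3 and 645 in the 22 h and 703, 611 and 558 in the missed-meal libraries, where CR_22h 3 lay far below the rest, and the difference of -0.58 ± 0.43 did not pass (adjusted p = 0.39). Without CR_22h 3 it did, at -0.94 (adjusted p = 0.0325).

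The glycogen list split between subunits that bring protein phosphatase 1 to glycogen. Ppp1r3c was at 117, 107 and 183 CPM in the fed, 19.2, 18.8, 26.0 and 18.0 in the 22 h and 48.3, 48.1 and 26.5 in the missed-meal libraries and rose by 2.73 ± 0.55 (adjusted p = 8.82e-04). Ppp1r3b, the main such subunit of liver, was at 512, 673 and 570.5 CPM in the fed and 316, 295, 184 and 227 in the 22 h libraries and rose by 1.19 ± 0.35, a call lost without CR_22h 4 (adjusted p = 0.0553) or CR_fed 2 (adjusted p = 0.0636). Ppp1r3g moved the other way and gave the largest fall by the naming rule. Located at chr13:35958839-35970388 (GRCm38), it stood at 0.359, 0.515 and 0.410 CPM in the fed, 9.48, 13.3, 20.3 and 121 in the 22 h and 20.7, 20.1 and 40.4 in the missed-meal libraries. The fed values were all under 1 CPM and no unfed value was under 9 CPM. The change was -6.57 ± 1.2 (adjusted p = 3.65e-04) against 22 h and -5.97 ± 1.2 (adjusted p = 0.0014) against the missed meal. In all, 2 of 14 glycogen genes rose and 2 fell, the other being the phosphorylase kinase subunit gene Phka2. Without CR_fed 3 only 1 fell.

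**Figure D2:**
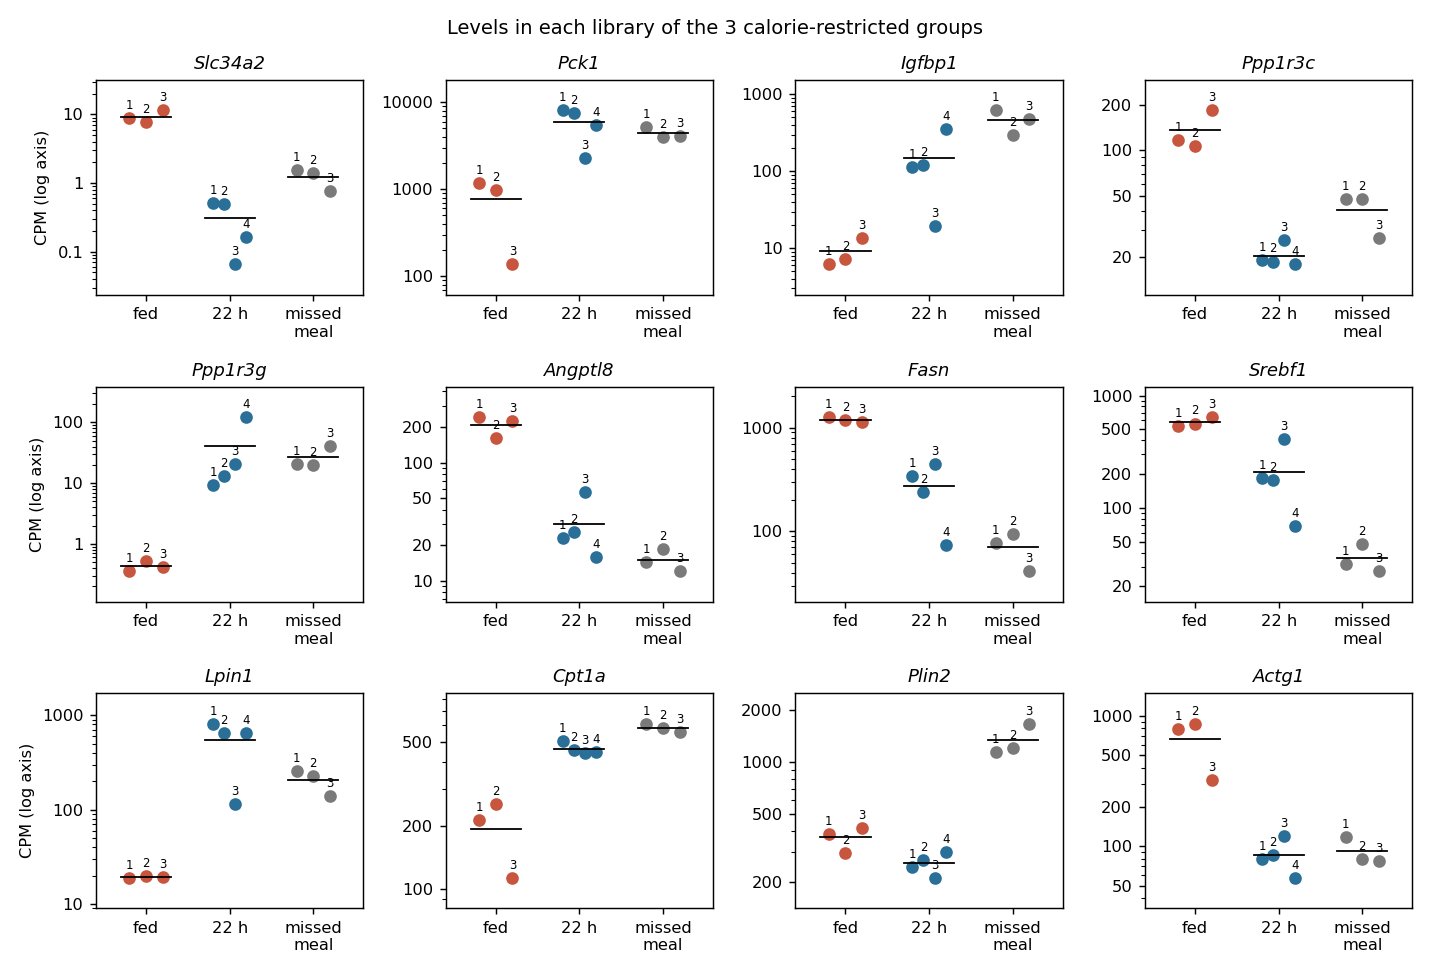
Each point is 1 library of the fed (n = 3), 22 h (n = 4) or missed-meal (n = 3) group, numbered by replicate, with its level in CPM on a log axis and a line at the group mean; each panel has its own scale. Lpin1 and Ppp1r3g were lower, and Slc34a2, Fasn, Angptl8 and Actg1 higher, in all 3 fed libraries than in all 7 others, while Plin2 was highest in the 3 missed-meal libraries.

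Of 16 insulin and FOXO genes, several of which FOXO factors raise when insulin is low, 5 fell in fed livers and none rose. Over all tested genes, 8.54% fell. The list median was -0.44 against -0.005 for all tested genes, and 3 fell with CR_fed 3 and CR_22h 3 both left out. Against the missed meal, 1 of the 16 was higher and 1 lower in fed livers, with a median of -0.14. Igfbp1, a secreted binder of insulin-like growth factors and a textbook FOXO1 target, stood at 6.22, 7.34 and 13.7 CPM in the fed, 112, 122, 19.3 and 349 in the 22 h and 617, 295 and 475 in the missed-meal libraries. CR_22h 3 was the lowest of the unfed libraries and still exceeded each fed library, and the change was -4.05 ± 0.98 (adjusted p = 0.00451). Irs2, an adaptor of the insulin receptor, was at 12.6, 17.2 and 17.9 CPM in the fed, 68.9, 58.5, 26.4 and 154 in the 22 h and 49.8, 57.8 and 34.5 in the missed-meal libraries and changed by -2.27 ± 0.56. The insulin receptor gene Insr changed by -0.84 ± 0.21, Foxo1 by -1.31 ± 0.31 and Foxo3 by -0.88 ± 0.22. Against the missed meal Irs2 (-1.58 ± 0.57, adjusted p = 0.0659), Insr (-0.56 ± 0.22, adjusted p = 0.0903) and Foxo1 (-0.92 ± 0.32, adjusted p = 0.0542) were not called. With the replicate number as a block Irs2 and Foxo1 were (adjusted p = 0.0254 and 0.0203). For Foxo3, fed minus missed meal was 0.09 ± 0.24 (adjusted p = 0.861) and missed meal minus 22 h was -0.97 ± 0.22 (adjusted p = 0.00819, or 0.0772 without CR_missed_meal 3). Of 13 growth hormone and IGF genes 2 rose, beside 8.50% of all tested genes. Among these 2, Igfals, which stabilises circulating IGF1, rose by 1.24 ± 0.28, whereas Igf1 itself gave -0.27 ± 0.25 (adjusted p = 0.514).

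The promoter of Igfbp1 is shown because its insulin-responsive element holds a FOXO site. The 250 bases before the start of transcription (RefSeq, GRCm38.p6, chr11:7197537-7197786, plus strand) carry 1 CAAAACA, searched on both strands and printed in capitals.
Igfbp1: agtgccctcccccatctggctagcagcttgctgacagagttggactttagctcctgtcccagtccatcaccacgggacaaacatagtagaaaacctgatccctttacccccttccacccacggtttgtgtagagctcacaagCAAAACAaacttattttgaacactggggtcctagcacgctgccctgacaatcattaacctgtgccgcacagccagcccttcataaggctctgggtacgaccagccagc
This motif was found in 5.55% of the 27025 promoters of that length, and in 3 of the 14 insulin and FOXO genes with an entry, Igfbp1, Irs1 and Irs2. The match is a description of the sequence and not a measured binding site.

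Of 21 genes of de novo lipogenesis, the synthesis of fatty acids from smaller units, 10 rose in fed livers, beside 8.50% of all tested genes. None fell, and the list median was 0.67. The count of rises lay between 6, without CR_fed 1, and 11 when each library was left out in turn, and at 8 without CR_fed 3 and CR_22h 3 together. Fasn, fatty acid synthase, stood at 1259.6, 1181 and 1144 CPM in the fed, 344, 241, 442 and 73.4 in the 22 h and 77.3, 93.5 and 41.6 in the missed-meal libraries. The fed libraries lay within a narrow band above all others, with CR_22h 4 at the level of the missed meal, and the rise was 2.12 ± 0.44 (adjusted p = 0.00115). Elovl6, which elongates its product, rose by 2.29 ± 0.48, the citrate lyase gene Acly by 1.27 ± 0.31 and Nr1h3, which encodes the oxysterol receptor LXR alpha, by 0.67 ± 0.14. Nr1h3 differed by 0.18 ± 0.15 (adjusted p = 0.494) from the missed-meal livers, and these from the 22 h livers by 0.49 ± 0.14 (adjusted p = 0.0378), a call lost without CR_22h 1 or 4 or CR_missed_meal 1 or 3 (highest adjusted p = 0.17). Srebf1, the driver of these genes, was at 535, 564 and 641 CPM in the fed, 184, 176, 414 and 69.4 in the 22 h and 31.7, 47.9 and 27.5 in the missed-meal libraries, a rise of 1.46 ± 0.35 against 22 h. Pnpla3, a feeding-induced protein of lipid droplets, was at 6.00, 4.55 and 43.7 CPM in the fed and 1.67, 1.11, 3.86 and 1.88 in the 22 h libraries. CR_fed 3 alone was high, and the change of 3.06 ± 0.98 became 1.29 without it (adjusted p = 0.46); the call was lost in 4 of 7 fits that left out 1 library, also without CR_22h 1, CR_22h 2 or CR_22h 4.

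Not all genes of the pathway followed. The desaturase gene Scd1 was at 2324, 2888 and 7545 CPM in the fed and 5199, 4774, 5877 and 743 in the 22 h libraries, with overlap and a difference of 0.04 ± 0.59 (adjusted p = 0.979). CR_22h 4, at 743 CPM, was at the level of the missed-meal libraries (345, 1244 and 669.6 CPM). Thrsp, a lipogenic cofactor, gave 1.60 ± 0.65 (adjusted p = 0.0869) and passed without CR_22h 3 (2.16, adjusted p = 0.03). For Fasn, Srebf1, Acly and Scd1 the missed-meal livers were also below the 22 h livers, with differences of -1.96 ± 0.46 (adjusted p = 0.00949), -2.56 ± 0.39 (adjusted p = 1.95e-04), -1.15 ± 0.32 (adjusted p = 0.0295) and -2.46 ± 0.64 (adjusted p = 0.0193). These values are also the test that the fed livers stood further above the missed-meal than above the 22 h livers in these 4 genes. Srebf1 kept this call whichever library was left out, whereas Fasn lost it without CR_missed_meal 3 (adjusted p = 0.0877), Scd1 without CR_missed_meal 1 (adjusted p = 0.137) or 3, and Acly without either of these (highest adjusted p = 0.15), CR_22h 1 or CR_22h 3. Angptl8, an insulin-induced hepatokine that blocks lipoprotein lipase in other tissues, was at 242, 160.2 and 223 CPM in the fed and 23.2, 25.8, 56.7 and 16.1 in the 22 h libraries, a rise of 2.77 ± 0.64 (adjusted p = 0.00304).

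Few sterol synthesis genes were called, beside 8.50% higher and 8.54% lower over all tested genes. Of 20 cholesterol synthesis genes, 3 rose and none fell, with a median of 0.63, the squalene epoxidase gene Sqle among them. Mvd, mevalonate diphosphate decarboxylase, was at 55.8, 37.6 and 43.2 CPM in the fed and 10.6, 17.7, 12.8 and 5.52 in the 22 h libraries and rose by 1.96 ± 0.44 (adjusted p = 0.00247). Hmgcs1 rose by 1.47 ± 0.42, a call lost without CR_22h 4 (adjusted p = 0.0702) or CR_fed 1 (adjusted p = 0.141). The count of 3 became 1 without CR_22h 4 or without CR_fed 1, 6 without CR_22h 2 and 5 without CR_fed 3. Against the missed meal, 14 of the 20 genes were higher in fed livers, or 8 without CR_fed 1, CR_missed_meal 2 or CR_missed_meal 3. In that comparison 6.14% of all tested genes were higher. Of 12 sterol sensing and uptake genes none rose and 3 fell, among them both subunits of the sterol exporter of the canalicular membrane Abcg5 (-1.52 ± 0.29) and Abcg8 (-2.0 ± 0.36). For Abcg5, fed minus missed meal was -0.44 ± 0.29 (adjusted p = 0.366) and missed meal minus 22 h -1.08 ± 0.28 (adjusted p = 0.019), the latter lost without CR_22h 3, CR_missed_meal 1 or CR_missed_meal 3 (highest adjusted p = 0.107). Abcg8 was at 41.1, 44.3 and 21.1 CPM in the fed, 152, 128, 178 and 111 in the 22 h and 77.6, 88.9 and 58.0 in the missed-meal libraries. Cyp7a1, the rate-limiting enzyme of bile acid synthesis, was at 245, 379 and 163 CPM in the fed and 94.0, 71.3, 219 and 48.5 in the 22 h libraries, and its difference of 1.28 ± 0.63 did not pass (adjusted p = 0.169) unless CR_22h 3 was left out (1.88, adjusted p = 0.0493).

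Triglyceride assembly showed opposite changes at neighbouring steps. Lpin1, the phosphatidate phosphatase that also coactivates PPARA, was at 19.0, 19.8 and 19.3 CPM in the fed, 807, 643, 114 and 644 in the 22 h and 257, 224 and 138 in the missed-meal libraries. The 3 fed values differed by less than 1 CPM, and CR_22h 3 was the lowest of its group. The change was -4.83 ± 0.75 (adjusted p = 8.02e-05). Its relative Lpin2 was at 59.6, 75.1 and 67.6 CPM in the fed and 509.8, 458, 274 and 780.1 in the 22 h libraries, a change of -2.91 ± 0.42. Agpat2, which makes phosphatidate, the substrate of both, was at 352, 355 and 438 CPM in the fed and 123, 163, 106 and 132 in the 22 h libraries and rose by 1.54 ± 0.20 (adjusted p = 9.72e-06). It was also higher in missed-meal than in 22 h livers (1.0 ± 0.20, adjusted p = 0.00225). In all, 1 of 12 triglyceride synthesis genes rose and 2 fell, beside 8.50% and 8.54% of all tested genes. Lpl, lipoprotein lipase, was at 60.4, 20.0 and 20.2 CPM in the fed and 6.65, 6.41, 16.4 and 12.1 in the 22 h libraries. It was highest in CR_fed 1, the library with adipocyte genes, and its rise of 1.69 ± 0.35 became 0.95 without that library (adjusted p = 0.0698). The part of adipose RNA in this value was not tested.

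Few fatty acid oxidation genes were called between fed and 22 h livers. Among 30 PPARA targets 2 fell and none rose, with a median of -0.28, and 2 of 27 fatty acid oxidation genes fell, shares below the 8.54% of all genes that fell. The 2 falls became 4 among PPARA targets without CR_22h 3, and 1 among oxidation genes without CR_22h 4, CR_fed 2 or CR_fed 3. Cpt1a, the gate of mitochondria for long-chain fatty acids, was at 212, 253 and 113 CPM in the fed, 507, 456, 441 and 447 in the 22 h and 607, 584 and 554 in the missed-meal libraries. Fed livers were lower than both other groups without overlap, with -1.26 ± 0.29 against 22 h (adjusted p = 0.0026). Angptl4, an inhibitor of lipoprotein lipase raised by fatty acids, was at 38.1, 36.4 and 35.5 CPM in the fed and 205, 249.8, 79.1 and 210.1 in the 22 h libraries, a change of -2.34 ± 0.49 (adjusted p = 0.00133). Cyp4a14, a fatty acid hydroxylase gene, gave -0.84 ± 0.65 (adjusted p = 0.418) and the fasting hormone gene Fgf21 -1.45 ± 0.81 (adjusted p = 0.229). Reads of Cyp4a14 may be shared with its close paralogs.

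The same lists separated both groups from the missed meal. Against it, 25 of the 30 PPARA targets and 18 of the 27 oxidation genes were lower in fed livers, and 14 and 13 were higher after the missed meal than at 22 h. Without CR_fed 3 the first count was 15, and without CR_missed_meal 1 the last was 7. Over all tested genes, 6.34% were lower in fed than in missed-meal livers, and 3.53% were higher after the missed meal than at 22 h. Fgf21 was at 0.431, 0.344 and 1.27 CPM in the fed, 2.40, 2.06, 0.792 and 2.21 in the 22 h and 36.9, 11.7 and 22.0 in the missed-meal libraries. The missed-meal values stood above those of every other library of these 3 groups. Plin2, a coat protein of lipid droplets, was at 383, 297 and 417 CPM in the fed, 247, 271, 213 and 302 in the 22 h and 1150.5, 1210.5 and 1662 in the missed-meal libraries, with 0.50 ± 0.24 between fed and 22 h livers (adjusted p = 0.154) and 2.38 ± 0.24 between missed-meal and 22 h livers (adjusted p = 8.76e-07). Of 20 lipid droplet and lipolysis genes, 1 rose in fed against 22 h livers, the hormone-sensitive lipase gene Lipe (0.74 ± 0.25, lost in 5 of 7 fits that left out 1 library, highest adjusted p = 0.289). The 1 that fell was Plin4 (-2.84 ± 0.87, lost in 4 of 7 such fits, highest adjusted p = 0.112). Among the fed and 22 h libraries Lipe was highest in CR_fed 1 at 27.9 CPM, and it reached 31.8 CPM after the missed meal. Cidec, which fuses droplets, was at 12.9, 1.25 and 1.0 CPM in the fed and 1.46, 1.32, 1.19 and 0.441 in the 22 h libraries; its high value was in CR_fed 1, and the difference of 2.19 ± 0.80 (adjusted p = 0.0565) was 0.00 without it (adjusted p = 1), and passed without CR_fed 2 (adjusted p = 0.028) or CR_fed 3 (adjusted p = 0.0326). Of 7 ketone body genes, 2 carriers rose, Slc16a1 and Slc16a6, the latter at 11.8, 11.5 and 17.3 CPM in the fed and 2.40, 1.07, 3.47 and 2.98 in the 22 h libraries (2.44 ± 0.40, adjusted p = 1.37e-04). Without CR_22h 3 or CR_fed 3 the list counted 1 riser.

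**Figure D3:**
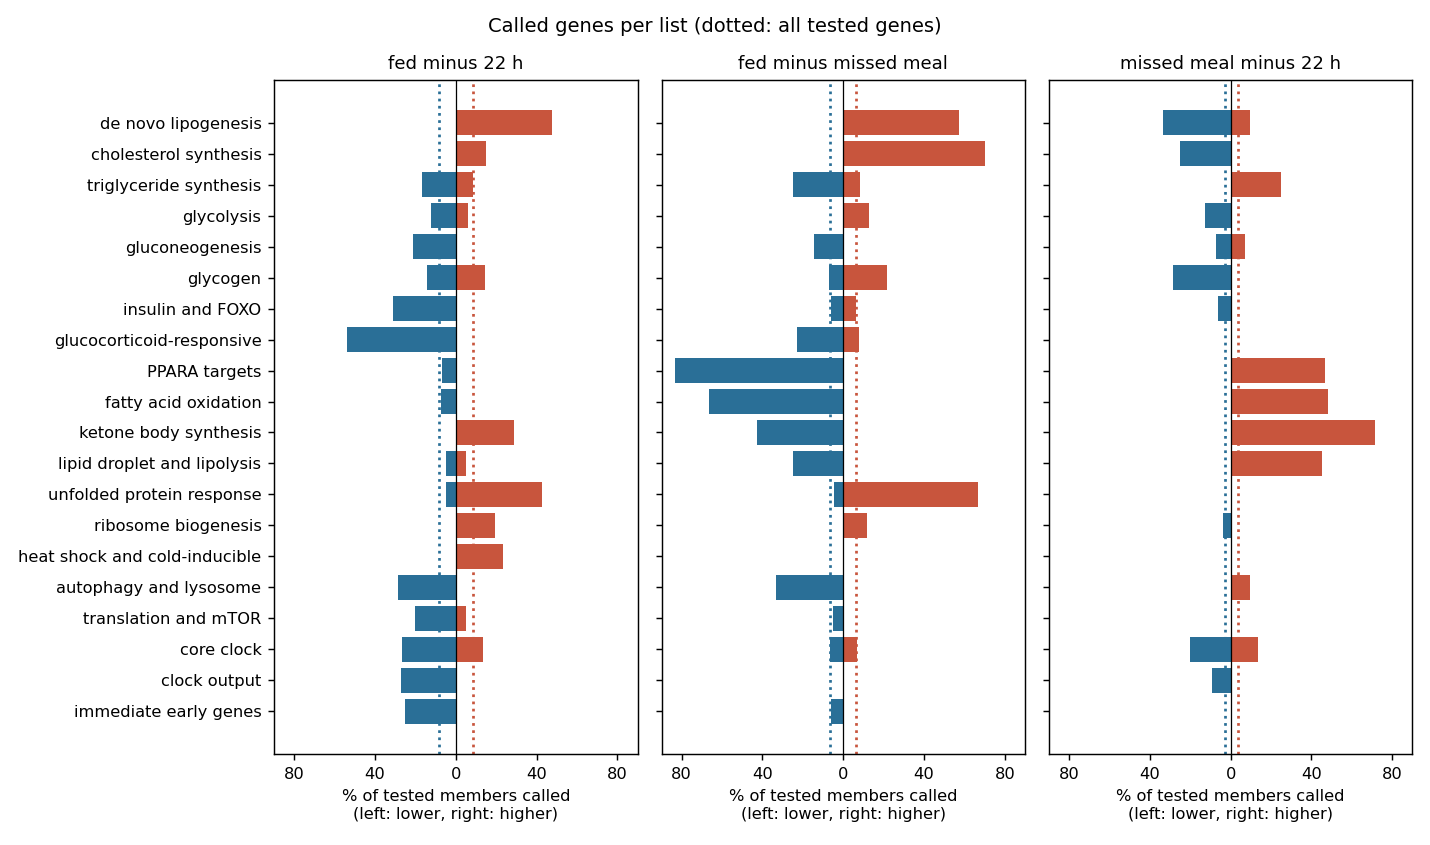
Bars give, for 20 gene lists, the percent of tested members called higher (right, red) and lower (left, blue) at an adjusted p under 0.05 in the 3 comparisons named above the panels; dotted lines mark the same percents over all 13786 tested genes. PPARA targets were called lower in 25 of 30 genes in fed against missed-meal livers and in 2 of 30 in fed against 22 h livers.

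Genes of protein folding in the endoplasmic reticulum rose in fed livers by the test, with calls that rested on CR_fed 3. Of 21 unfolded protein response genes, 9 rose and 1 fell, with a median of 0.72, beside 8.50% higher and 8.54% lower over all tested genes. Without CR_fed 3 none rose and 1 fell. Hspa5, the chaperone BiP, was at 772, 601 and 1408 CPM in the fed, 423, 418, 226 and 272 in the 22 h and 389.9, 282 and 262 in the missed-meal libraries. All fed libraries were above all unfed ones, CR_fed 3 by most, and the rise of 1.47 ± 0.40 (adjusted p = 0.0101) was 1.04 without it (adjusted p = 0.118). Sdf2l1, a chaperone partner of BiP, was at 11.7, 9.84 and 90.6 CPM in the fed and 5.23, 6.62, 5.18 and 4.58 in the 22 h libraries, with 2.78 ± 0.61 for all libraries and 0.99 without CR_fed 3 (adjusted p = 0.257). Creld2, a disulfide isomerase of the same response, was at 33.8, 22.2 and 227 CPM in the fed and 14.7, 18.7, 6.14 and 13.6 in the 22 h libraries, with 2.83 ± 0.66 and 1.08 (adjusted p = 0.27). Manf, a secreted factor kept in the endoplasmic reticulum, gave 1.92 ± 0.42 and 1.11 (adjusted p = 0.0812). Herpud1, which aids the removal of misfolded proteins, moved the other way, at 157, 131 and 137 CPM in the fed and 693, 701, 387 and 585 in the 22 h libraries. The fed values were close together and below every unfed value, a change of -2.06 ± 0.33 (adjusted p = 1.01e-04) that kept its call whichever library was left out. Against the missed meal, 14 of the 21 genes were higher in fed livers and 1 lower, and 2, 9 and 5 were higher without CR_fed 3, CR_missed_meal 2 and CR_missed_meal 3. In that comparison 6.14% of all tested genes were higher and 6.34% lower.

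Promoters of many chaperones of this response carry the endoplasmic reticulum stress element, CCAAT and CCACG spaced by 9 bases, to which ATF6 binds. It is shown here because 3 of the list genes called higher carry it. Searched on both strands in the 250 bases before the start of transcription (RefSeq, GRCm38.p6), it was present in 0.122% of 27025 promoters and in 9 of the 18 list genes with an entry. The list was drawn from known genes of this response, so these shares are no test. Of the 9 genes, 3 were called higher: Hspa5, Creld2 and the ubiquitin ligase gene Syvn1, chosen after its values were seen. The other carriers, Hsp90b1, Pdia6, Calr, Canx, Dnajc3 and Derl3, were not called. The 3 called genes are shown with the element in capitals, in chr2:34771840-34772089, chr15:88819396-88819645 and chr19:6046326-6046575, all on the plus strand.
Hspa5: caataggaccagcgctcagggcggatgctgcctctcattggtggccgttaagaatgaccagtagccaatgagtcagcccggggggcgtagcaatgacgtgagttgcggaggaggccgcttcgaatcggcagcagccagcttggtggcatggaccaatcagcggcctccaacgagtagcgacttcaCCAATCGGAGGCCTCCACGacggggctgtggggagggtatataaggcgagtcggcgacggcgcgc
Creld2: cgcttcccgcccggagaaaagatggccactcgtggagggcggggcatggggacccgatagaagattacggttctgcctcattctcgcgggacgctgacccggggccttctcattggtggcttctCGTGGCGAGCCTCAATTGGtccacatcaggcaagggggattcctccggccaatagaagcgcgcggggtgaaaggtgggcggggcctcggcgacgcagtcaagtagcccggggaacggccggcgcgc
Syvn1: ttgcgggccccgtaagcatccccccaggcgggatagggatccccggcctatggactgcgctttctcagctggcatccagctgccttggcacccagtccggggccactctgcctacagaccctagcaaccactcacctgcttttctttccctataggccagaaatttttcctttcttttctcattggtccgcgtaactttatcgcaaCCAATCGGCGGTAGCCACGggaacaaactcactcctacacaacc
In the promoter of Creld2 the element lies on the opposite strand. The first capital stands 65 bases before the start of Hspa5, 126 before that of Creld2 and 44 before that of Syvn1. A match describes these letters and is not a measured site, and none of the 3 genes was called without CR_fed 3.

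**Figure D4:**
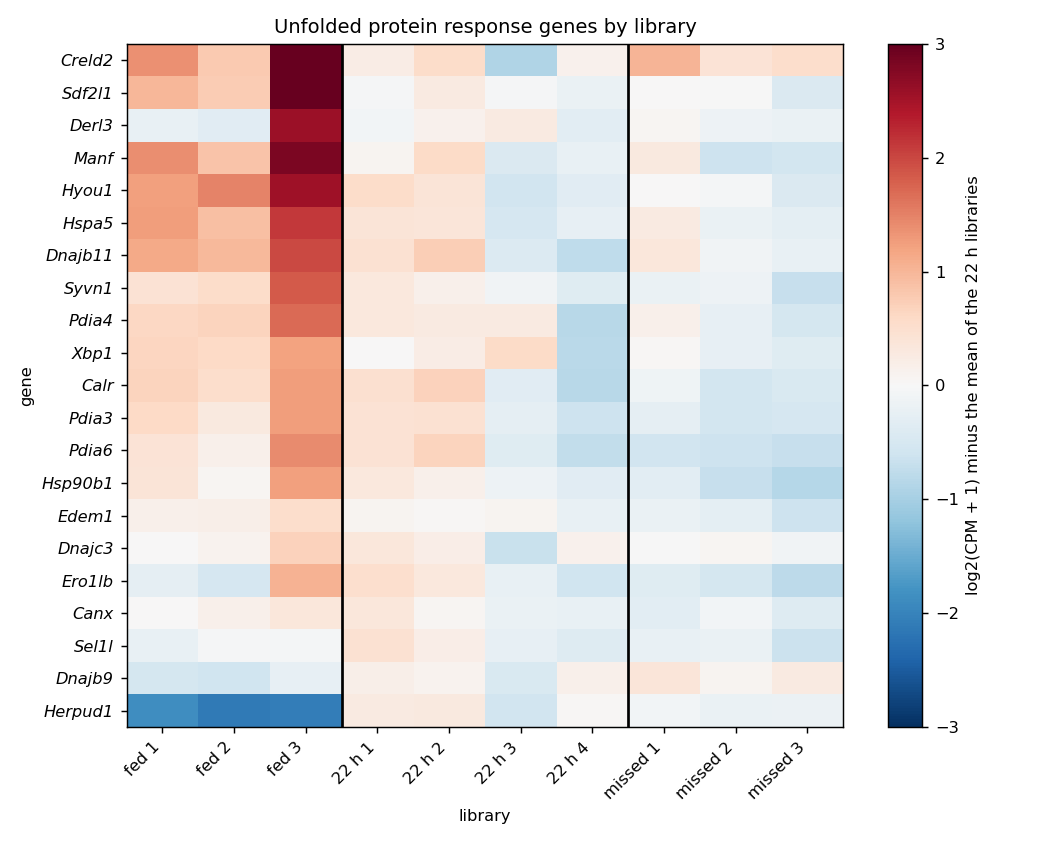
Rows are the 21 unfolded protein response genes, ordered by fold change, and columns the fed, 22 h and missed-meal libraries; colour gives log2(CPM + 1) minus the mean of the 22 h libraries of that gene, limited to -3 and 3. CR_fed 3 is the darkest column, CR_fed 1 and 2 are paler, and Herpud1 is low in all 3.

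Genes of other parts of protein supply were also called, beside 8.50% higher and 8.54% lower over all tested genes. Of 26 ribosome biogenesis genes, 5 rose and none fell (median 0.39). Polr1e, a subunit of the polymerase that transcribes ribosomal RNA, rose by 1.47 ± 0.27 and Rrp12, a ribosome export factor, by 1.47 ± 0.34; the count was 3 without CR_22h 4, CR_fed 2 or CR_fed 3. Of 17 heat shock and cold-inducible genes 4 rose, with the cytosolic chaperone gene Hsp90aa1 at 599, 584 and 592 CPM in the fed and 271, 210.4, 54.8 and 205 in the 22 h libraries. Its rise was 1.67 ± 0.47 (adjusted p = 0.0132), with CR_22h 3 lowest. Without CR_22h 3 the list counted 1 gene higher and 2 lower. It counted 1 higher without CR_22h 4 or CR_fed 1, and 2 higher without CR_fed 2 or CR_fed 3. Between fed and missed-meal livers none of the 17 genes was called. Hsp90aa1 was at 359 to 405 CPM in the missed-meal libraries, above every 22 h library and below every fed one. Among 20 translation and mTOR genes 1 rose, the cap-binding factor gene Eif4e (0.73 ± 0.16), and 4 fell, with Mtor at -0.79 ± 0.22 (adjusted p = 0.0926 without CR_fed 3). Without CR_fed 1 or CR_fed 3 only 1 of the 20 fell, and without CR_22h 2 2 rose.

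Of 21 autophagy and lysosome genes, 6 fell in fed livers, beside 8.54% of all tested genes. None rose, while the median of the list was 0.00. The count of falls was 4 without CR_22h 4, CR_fed 2 or CR_fed 3. Ulk1, the kinase that starts autophagy, was at 18.7, 23.5 and 20.2 CPM in the fed, 125, 94.0, 67.8 and 68.8 in the 22 h and 71.4, 76.6 and 53.7 in the missed-meal libraries. All fed values were below all unfed values, a change of -2.10 ± 0.35 against 22 h (adjusted p = 1.77e-04). Gabarapl1, an ATG8-family protein of the autophagosome membrane, changed by -1.21 ± 0.21, Wipi1, a phosphoinositide reader, by -1.5 ± 0.29 and Atg14, a subunit of the lipid kinase complex, by -1.13 ± 0.20. The ATG8 gene Map1lc3b (-0.66 ± 0.19) and the mitophagy receptor gene Bnip3 (-0.89 ± 0.28) lost their calls without CR_22h 4, CR_fed 2 or CR_fed 3 (highest adjusted p = 0.091 and 0.131).

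Clock genes differed between fed and 22 h livers, and several stood at like levels in fed and missed-meal livers. Of 15 core clock genes, 2 rose and 4 fell, or 1 and 3 without CR_fed 3. Over all tested genes, 8.50% rose and 8.54% fell. Nr1d1, the repressor REV-ERB alpha, stood at 4.67, 4.25 and 1.37 CPM in the fed, 50.6, 42.2, 40.0 and 7.83 in the 22 h and 4.92, 5.33 and 6.47 in the missed-meal libraries. It was low in both ZT 18 groups and in CR_22h 4, with -3.35 ± 0.81 for fed minus 22 h (adjusted p = 0.00428), -0.69 ± 0.80 for fed minus missed meal (adjusted p = 0.647) and -2.66 ± 0.78 for missed meal minus 22 h (adjusted p = 0.0371). Arntl, the activator BMAL1 that REV-ERB represses, was at 18.4, 19.8 and 16.8 CPM in the fed, 4.12, 5.51, 0.462 and 2.98 in the 22 h and 16.4, 13.4 and 14.6 in the missed-meal libraries. It was high in both ZT 18 groups, with 2.5 ± 0.64 (adjusted p = 0.0065), 0.31 ± 0.65 (adjusted p = 0.822) and 2.19 ± 0.64 (adjusted p = 0.0354) for the same 3 differences. The difference between missed-meal and 22 h livers lost its call in 6 of the 7 fits that left out 1 library of those groups, both for Nr1d1 (highest adjusted p = 0.157) and for Arntl (highest adjusted p = 0.118). Dbp, a factor driven directly by ARNTL and CLOCK, was at 11.3, 11.0 and 3.14 CPM in the fed, 58.9, 67.7, 195 and 22.1 in the 22 h and 7.11, 7.03 and 5.54 in the missed-meal libraries, with -3.34 ± 0.91 (adjusted p = 0.0107), 0.38 ± 0.89 (adjusted p = 0.844) and -3.71 ± 0.94 (adjusted p = 0.0152). The first of these was lost without CR_fed 3 (adjusted p = 0.0662) and the last without CR_22h 3, CR_missed_meal 1 or CR_missed_meal 3 (highest adjusted p = 0.0897), and CR_22h 3 and 4 held the highest and lowest Dbp of their group.

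Nr1d2, the paralog of Nr1d1, was called lower in fed livers against both unfed groups. It was at 23.5, 24.5 and 6.87 CPM in the fed, 94.5, 79.5, 121 and 134 in the 22 h and 50.3, 55.9 and 77.3 in the missed-meal libraries, with the fed values below all others. The change was -2.55 ± 0.51 against 22 h (adjusted p = 8.56e-04) and -1.74 ± 0.51 against the missed meal (adjusted p = 0.023), the latter lost without CR_fed 3 (adjusted p = 0.121) or CR_missed_meal 3 (adjusted p = 0.1). Rora, an activator that competes with the REV-ERB repressors, gave -1.0 ± 0.25 (adjusted p = 0.00633) and -0.77 ± 0.27 (adjusted p = 0.0541, or 0.0147 with the replicate number as a block). Npas2, a partner of ARNTL, was at 0.324, 0.344 and 8.28 CPM in the fed and 0, 0, 0.0330 and 0.496 in the 22 h libraries, where CR_22h 1 and 2 were at 0. Its call rested on CR_fed 3 (adjusted p = 0.596 without it). Per1 gave -1.84 ± 0.64, lost in 5 of 7 fits that left out 1 library (highest adjusted p = 0.199). Per2 overlapped, at 45.8, 62.8 and 50.7 CPM in the fed and 54.7, 34.5, 70.5 and 58.2 in the 22 h libraries (-0.04 ± 0.54, adjusted p = 0.976). Among 11 clock output genes 3 fell, including Tef (-1.01 ± 0.30, adjusted p = 0.128 without CR_fed 3), and none did without CR_fed 3.

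Across the other calorie-restricted groups, labelled 0, 6 and 14 h, the clock genes ranged widely. Nr1d1 averaged 206 ± 84.8 CPM (SD, n = 3) at 14 h, 2.98 ± 1.26 (SD, n = 3) at 6 h and 5.17 ± 2.08 (SD, n = 2) at 0 h. The fed mean of 3.43 ± 1.80 CPM (SD, n = 3) was nearest to the 6 h mean of these. Nearness to another group differed from gene to gene. Dbp, at 8.49 CPM in the fed group, was nearest to the 0 h mean of 7.54, and Fasn, at 1195 CPM, to the 6 h mean of 1367. Slc34a2 averaged 9.59 ± 0.0441 CPM (SD, n = 2) at 0 h, nearest to the fed mean of 9.30 ± 1.91 (SD, n = 3), and 4.77 ± 2.0 (SD, n = 3) at 6 h. Angptl8 averaged 285 ± 6.36 CPM (SD, n = 2) at 0 h and 68.2 ± 55.6 (SD, n = 3) at 6 h, against 208 ± 42.7 (SD, n = 3) in the fed group. The fed range of Slc34a2, 7.73 to 11.4 CPM, held both 0 h values, and that of Angptl8, 160.2 to 242 CPM, lay below them. These levels are a description, and no test was made across these groups.

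**Figure D5:**
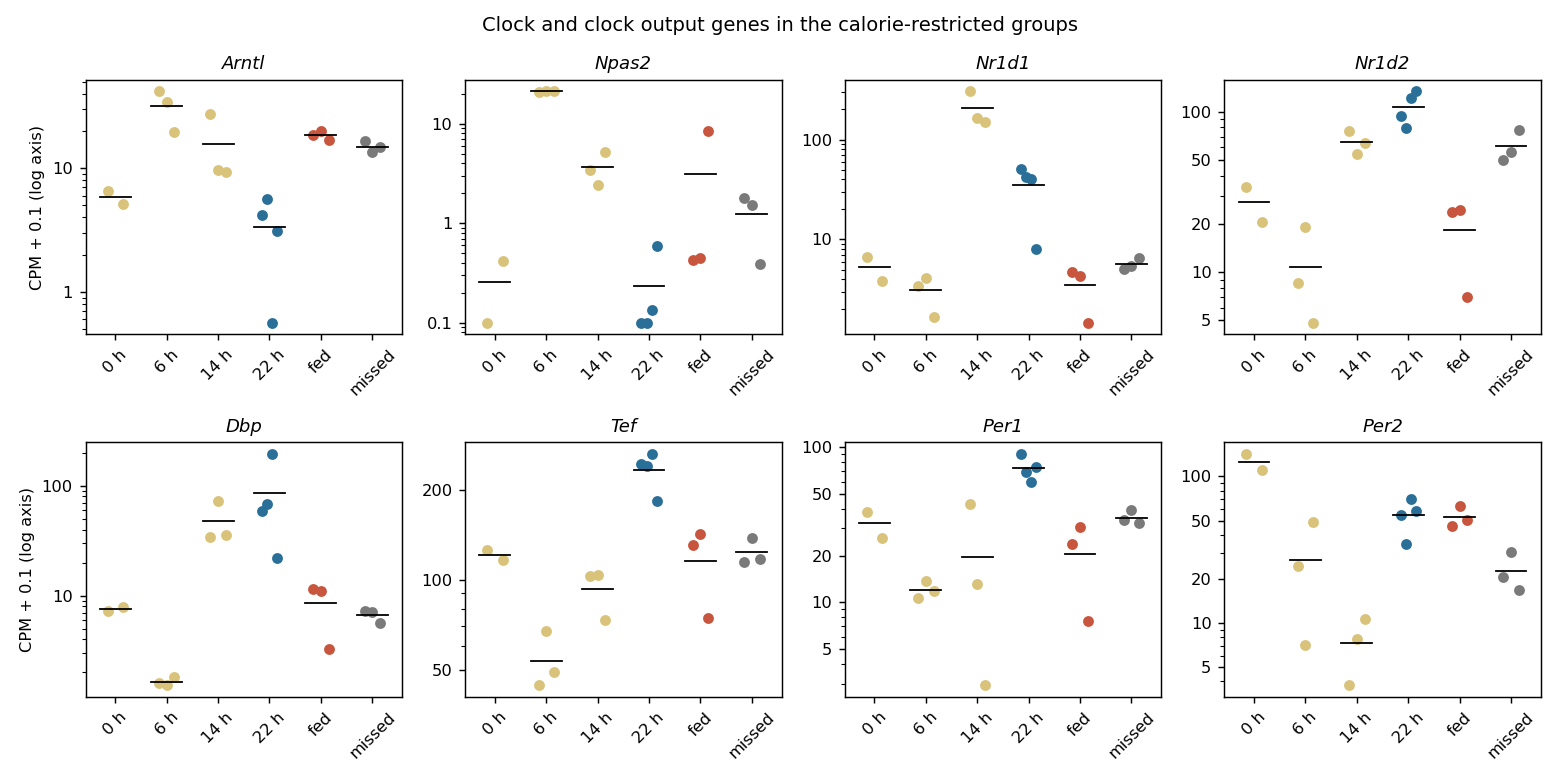
Each point is 1 library of a calorie-restricted group (0 h, n = 2; 6, 14 h, fed and missed meal, n = 3; 22 h, n = 4), with CPM + 0.1 on a log axis, a line at the group mean, and red for fed, blue for 22 h, grey for missed-meal and yellow for the other livers. Dbp overlaps between the fed and missed-meal groups, Nr1d1 and Nr1d2 are lower in all fed than in all missed-meal libraries, and Arntl is higher.

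Glucocorticoid-responsive genes fell in 7 of 13 cases, beside 8.54% of all tested genes, with a list median of -1.26. The count was 4 without CR_22h 4, 2 without CR_fed 1 and 1 without CR_fed 3. Zbtb16, a transcription factor strongly raised by glucocorticoids, was at 1.73, 3.74 and 2.05 CPM in the fed, 48.1, 31.9, 22.5 and 61.7 in the 22 h and 25.5, 28.5 and 25.0 in the missed-meal libraries. Fed values were below all unfed values and the change was -4.04 ± 0.72 (adjusted p = 3.07e-04). Fkbp5, a cochaperone of the glucocorticoid receptor, changed by -1.83 ± 0.55 and the phosphatase gene Dusp1 by -1.09 ± 0.30. Fkbp5 lost its call in 3 of 7 fits that left out 1 library, without CR_22h 1, CR_fed 1 or CR_fed 3 (highest adjusted p = 0.105), and Dusp1 without CR_fed 3 (adjusted p = 0.0633). The metallothionein gene Mt1 was at 35.6, 19.2 and 18.6 CPM in the fed and 56.3, 54.4, 352 and 89.9 in the 22 h libraries, highest in CR_22h 3, and its change of -2.5 ± 0.79 was lost in 4 of 7 such fits, without CR_22h 3 (adjusted p = 0.174) or any 1 fed library. Of 16 immediate early genes, 4 fell, beside the same 8.54%, and none rose. Without CR_22h 4, CR_fed 1 or CR_fed 3, 2 fell. Junb was at 7.66, 7.64 and 7.74 CPM in the fed and 22.3, 30.7, 37.4 and 27.7 in the 22 h libraries (-1.94 ± 0.49), while the fall of Nr4a1 (-3.49 ± 0.77) became -1.30 without CR_22h 4 (adjusted p = 0.0705).

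In amino acid and micronutrient metabolism genes were called in both directions, beside 8.50% higher and 8.54% lower over all tested genes. Of 12 metallothionein and iron genes, 2 rose and 2 fell. Of 24 urea cycle and amino acid breakdown genes, 1 rose and 2 fell, or 4 without CR_22h 3 and 1 in the other fits but that without CR_22h 4. Nags, which makes the activator of the urea cycle, was at 149, 155 and 119.8 CPM in the fed and 90.4, 99.9, 70.0 and 55.7 in the 22 h libraries (0.84 ± 0.20). Sds, serine dehydratase, was at 159.9, 118 and 78.0 CPM in the fed, 375, 623, 179.8 and 290.4 in the 22 h and 365, 270.2 and 239 in the missed-meal libraries and changed by -1.63 ± 0.35. Bhmt, which remethylates homocysteine with betaine, rose by 1.71 ± 0.48, a call lost without CR_22h 4 (adjusted p = 0.0559) or CR_fed 1 (adjusted p = 0.0697). Between fed and missed-meal livers Bhmt differed by 0.01 ± 0.51 (adjusted p = 0.993), a value that rested on CR_missed_meal 1. The missed-meal libraries ran from 896 to 8082 CPM. Without CR_missed_meal 1, fed minus missed meal was 1.77 (adjusted p = 0.00849). Missed meal minus 22 h was 1.70 ± 0.48 (adjusted p = 0.0289) with all libraries and -0.06 without CR_missed_meal 1 (adjusted p = 0.964). Cyp26a1, which degrades retinoic acid, was at 134, 92.9 and 62.2 CPM in the fed, 29.6, 28.7, 28.4 and 10.1 in the 22 h and 6.40, 7.53 and 3.65 in the missed-meal libraries. The 3 groups did not overlap, and the rise against 22 h was 1.99 ± 0.44. The manganese exporter gene Slc30a10 rose by 2.22 ± 0.33 and Srxn1, sulfiredoxin, by 1.5 ± 0.23, the 1 of 13 NRF2 targets that rose.

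Cytoskeletal genes, a set chosen after its values were seen, were higher in fed livers. Of 13 tested cytoplasmic actin and tubulin genes, 7 rose and none fell. Actg1, gamma actin, was at 795, 861 and 323 CPM in the fed, 79.3, 85.0, 120.0 and 57.4 in the 22 h and 117, 79.2 and 77.2 in the missed-meal libraries. Actb, beta actin, was at 1223, 1272 and 899 CPM in the fed, 387, 386, 276 and 190.4 in the 22 h and 278, 281 and 289.8 in the missed-meal libraries. Both were above every unfed library in all 3 fed libraries, with rises of 2.95 ± 0.29 and 1.87 ± 0.24 (adjusted p = 2.45e-07 and 9.72e-06). Among the fed libraries both were lowest in CR_fed 3, the one with a low muscle gene level. The part of muscle RNA in these values was not tested. Tuba1c rose by 2.81 ± 0.28, Tuba4a by 1.54 ± 0.28, Tubb2a by 2.25 ± 0.48, Tubb4b by 1.47 ± 0.25 and Tubb6 by 0.98 ± 0.25. Tubulin paralogs are alike in sequence, and reads may have been split between them.

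Among markers of other liver cells, 4 of 14 sinusoidal endothelial genes fell, beside 8.54% of all tested genes, and none rose. Leaving out CR_22h 4 or CR_fed 1 left 1 fall, and leaving out CR_22h 3, CR_fed 2 or CR_fed 3 left 2. Oit3 was at 12.2, 10.1 and 10.9 CPM in the fed and 27.2, 20.0, 22.0 and 28.5 in the 22 h libraries (-1.14 ± 0.31). The summed level of the 14 markers was 321 to 351 CPM in the fed and 376 to 524 CPM in the 22 h libraries, without overlap, and 487 to 533 CPM after the missed meal. In bulk tissue, fewer cells of a type and less RNA per cell cannot be told apart. None of 12 Kupffer and macrophage markers was called, and their sums ran from 195 to 559.6 CPM in the fed and 180.3 to 458 CPM in the 22 h libraries, highest in CR_fed 3 and CR_22h 3. A list of adipocyte, pancreatic and red cell genes, none called between fed and 22 h livers and 3 of 6 tested (Hba-a1, Hbb-bs and Alas2) called higher after the missed meal than in either, summed to 582 to 1449 CPM in the fed, 190.1 to 2399 in the 22 h and 3134 to 9774 in the missed-meal libraries. Of 12 stellate and fibroblast markers 1 rose and 1 fell. The riser, desmin (Des), which muscle also expresses, was at 21.3, 13.7 and 5.69 CPM in the fed and 3.90, 3.04, 4.23 and 5.24 in the 22 h libraries. Its fed values were in the order of the muscle gene sums, and the part of muscle RNA in it was not tested.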

How the data were processed

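Polyadenylated RNA from mouse liver was sequenced in 38 libraries of 13 groups, with a non-directional library kit per the labels' protocols, so sense and antisense reads were not told apart. Reads were aligned to GRCm38 and summed per gene with RSEM 1.2.3, per the labels' protocols and the submitters' processing notes. The authors deposited RSEM expected counts for 21954 genes, which were rounded to whole numbers here, and a second table of rescaled TPM (signal), which the authors normalised across libraries and which served only as an alternative. Totals per library ran from 17131292 to 30152277.

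Groups came from the sample labels. The members and gene lists were chosen with earlier results of these data known. Counts were fitted with edgeR 4.0.16 (R 4.3.3) over all 38 libraries with a term per group, TMM normalisation, its default filter on low counts (13786 genes kept) and a quasi-likelihood F test. The Benjamini-Hochberg adjustment ran over all tested genes, and a gene is called at an adjusted p under 0.05; all adjusted p-values are from this test unless another is named. On simulated counts of the same design, the test recovered 59% of changes of 1 and 98% of changes of 2 (log2), with 5.42% of calls false. There, 200 genes that averaged 5 CPM or more were changed in the fed group. All other genes were alike in all groups, and no library was made outlying. The data differ in these points, so the rates do not carry over to the calls reported here. Of the genes, 99.5% were matched to coordinates. Deviations of same-numbered fed and missed-meal libraries correlated (r = 0.144, 0.2 and 0.15). For that comparison alone, a fit with the replicate number as a block is therefore given beside results whose call it changed. The block was shared by all 38 libraries of that fit, so it is not a pairing of fed with missed-meal libraries alone.

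Named genes are the 12 largest rises and the 12 largest falls, of called genes that averaged 5 CPM or more in either group without overlap, leaving out unnamed gene models and Mup genes, the anchor genes, and up to 6 members of each list with the smallest p. Alternatives were DESeq2 1.42.0, its size factors, limma 3.58.1 on the rescaled TPM, other filters, fewer groups in the fit, removal of a trend with transcript length, a replicate block, and each library left out in turn. Some genes that this rule names are not reported here.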

Additional observations from a re-analysis of the deposited data

Results flagged for a closer look

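The 22 h group was the only group with 4 libraries. In 10 of the 101 genes named, 1 of its libraries lay far from the other 3 by Dixon's criterion at the 95% level. For normally distributed values, chance gives about 1 such group in 20. The criterion was applied to CPM, and the genes share libraries and were partly chosen on these values. That rate is therefore not an expectation for the 10 genes. CR_22h 4 was the outlying library for Ppp1r3g (121 CPM, high), Nr4a1 (38.2 CPM, high), Sftpa1 (16.1 CPM, high), Crtc2 (23.4 CPM, low), Npas2 (0.496 CPM, high) and Cyp26a1 (10.1 CPM, low). CR_22h 3 stood apart for G6pc (70.3 CPM, low), Ppp1r3c (26.0 CPM, high) and Mt1 (352 CPM, high), and CR_22h 1 for Mtor (45.3 CPM, high). Of these, the calls of Sftpa1 and Nr4a1 were lost without CR_22h 4, that of Mt1 without CR_22h 3, and G6pc was called only without CR_22h 3; the falls of Ppp1r3g and Crtc2 and the rises of Ppp1r3c and Cyp26a1 were called in every fit that left out 1 library.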

How the results depend on the processing

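The count of 2349 genes called between fed and 22 h livers was 975 with only these 2 groups fitted, and 1001 with a fold of at least 2 also required. It ran from 1338 to 2666 when single libraries were left out, and was 1566 with CR_fed 3 and CR_22h 3 both left out, a setting added after the data were seen. Between fed and missed-meal livers the 1720 calls became 2135 with only the 2 groups fitted, 1076 with 3 groups and 874 with the fold requirement, and 775 to 1228 without single libraries; the lowest was without CR_missed_meal 3. Between missed-meal and 22 h livers the 868 calls became 224 with 2 groups, 396 with 3 groups and 401 with the fold requirement, and 288 to 969 without single libraries. DESeq2 called 2669 genes in the first comparison and limma on the rescaled TPM 2098.

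With the replicate number as a block the 3 counts were 1751, 2091 and 1090. Deviations of same-numbered fed and 22 h libraries correlated at 0.0836, -0.0285 and 0.178, so these numbers do not pair the libraries of the main comparison; 8 of the genes named lost its call under the block. Of 91 called genes named, 67 stayed called whichever library was left out, 60 under every alternative, and none reversed. The 2 genes whose sign changed were not called. Scd1 (0.04) was at -0.45 without CR_fed 3 and CR_22h 3, -0.34 with the block, -0.33 without CR_22h 4 and -0.67 (its lowest) to 0.33 over single libraries left out, the ends being without CR_fed 3 and CR_fed 1. Per2 (-0.04) was at 0.14 without CR_fed 3 and CR_22h 3, 0.11 with the block, 0.10 with the length trend removed, 0.11 without CR_22h 3, 0.06 without CR_fed 1 and -0.20 without CR_22h 2. The causes were not tested. Fold changes of fed minus 22 h correlated with transcript length (Spearman's rho -0.25 across 13783 genes, which are not independent replicates), and removing that trend left 2254 calls. For missed meal minus 22 h rho was -0.20, and for fed minus missed meal it was -0.08. The cause of the trend was not tested.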
